A study of Mus musculus with 4 samples.

Results

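The 40 genes described here encode the interstitial matrix that fibroblasts lay down around the epithelium and smooth muscle of the ureter: fibrillar and associated collagens, proteoglycans, elastic fibre components, adhesive and matricellular proteins, and the fibroblast surface proteins Pdgfra and Dlk1. They were found as array probes whose gene name in the scanner files is on this list, and each gene was represented by its probe with the brightest mean signal over both channels and all 4 arrays. All 40 were found, with 57 probes among 39429, and all 40 were among the 21501 genes tested. All 57 probes were above background often enough to be kept, so no member was lost to the filter on dim probes.

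The RNA came from ureters of NMRI mouse embryos at stage E15.5. The mutants, called cKO, were Pax2-cre/+; Trp63(dN-flox/dN-flox), and the controls were Trp63(dN-flox/?), with no cre listed and the second allele not stated. At least 1 floxed Trp63 allele was thus shared by both groups, and the cre transgene and the loss of ΔNp63 go together in these samples, so their effects cannot be told apart. Each of 4 two-colour arrays held 1 cKO and 1 control RNA of the same sex, female in replicates 1 and 2 and male in replicates 3 and 4. The cKO RNA was in the red dye in replicates 1 and 3 and in the green dye in replicates 2 and 4. Whether an RNA came from 1 embryo or several is not stated in the labels, so the p-values measure only the spread between these RNAs, which may be technical. The median signal of an array was 382 to 416 in green and 519 to 617 in red, no spot was saturated, and the number of arrays limits the precision.

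Pax2-cre is known to act in the epithelial lineage of the nephric duct, and ΔNp63 is a transcription factor of basal epithelial cells, whereas interstitial matrix is made mainly by the mesenchyme around that epithelium. In the developing ureter this mesenchyme separates into an inner lamina propria, a smooth muscle coat and an outer adventitia. Fibrillar collagens give the wall tensile strength, small proteoglycans on the fibrils govern their assembly, and elastic fibres, made of elastin on a scaffold of microfibrils, let the tube recoil. In bulk RNA, fewer cells of a type and less RNA per cell cannot be told apart.

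No stromal matrix gene passed the test between cKO and control ureters, and the differences were small. Mean log2 ratios of cKO over control ran from -0.43 (Mfap4, 1.35-fold lower) to 0.42 (Thbs1, 1.34-fold higher), and none reached 1.5-fold. The test was limma on the 4 arrays with a dye term, called at an adjusted p under 0.05 over all genes. It called 0 of 40 members, 0 lower and 0 higher, where 1.24% of all genes were called, 0.712% lower and 0.526% higher. Without adjustment, limma gave a p under 0.05 for 8 members, against 8.04% of all genes. Of these, 7 were lower (Fmod, Loxl1, Mfap4, Eln, Fbln5, Fbln1 and Tnxb) against 4.31% of all genes, and 1 was higher (Thbs1) against 3.73%. The count of 7 was 2 without replicate 1, 20 without replicate 2, 6 without replicate 3 and 7 without replicate 4. Over all genes, 927 were lower at an unadjusted limma p under 0.05 with all arrays. That number was 581 without replicate 1, 1575 without replicate 2, 532 without replicate 3 and 2744 without replicate 4. The shifts without replicates 1 and 2 were thus not limited to the members. Without replicate 4 the count over all genes rose, whereas that of the members stayed at 7. Limma gave every gene the same variance without replicate 1 or 3, but not without replicate 2 or 4. These counts thus differ in more than the array left out. Fits that leave out an array still weight both dye orientations equally, so the single array left in 1 orientation counts as much as the other arrays together, and their values are not plain means. The targeted gene Trp63 gave -1.39, -1.18, -1.30 and -1.62 on the arrays, averaging -1.37 ± 0.18 (SD, n = 4; limma, adjusted p = 0.00322), and the labels do not place its probe relative to the floxed part. With all kept Trp63 probes averaged the value was -0.87 (limma, adjusted p = 0.0177).

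**Figure D1:**
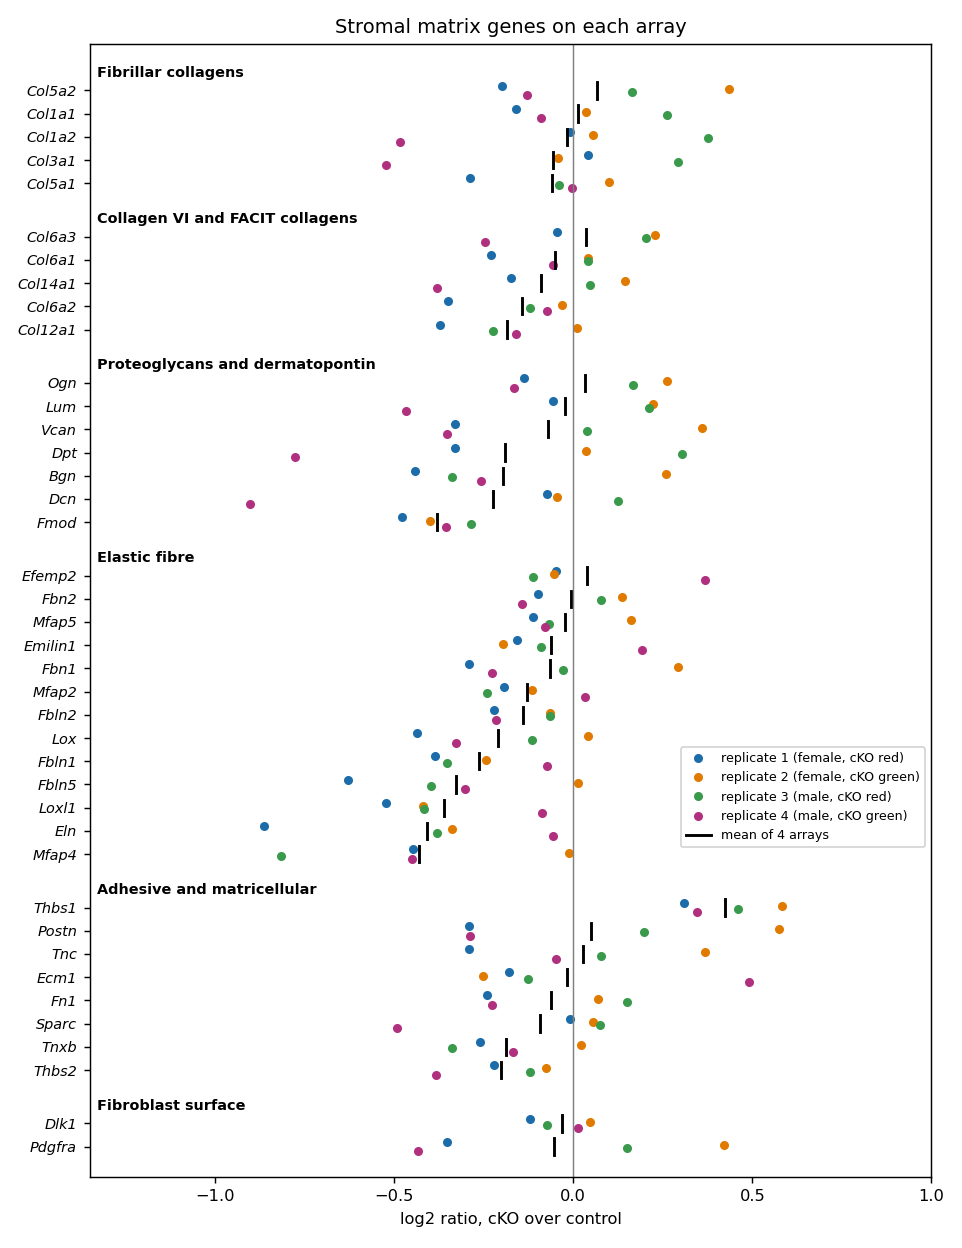
Log2 ratio of cKO over control (horizontal axis) of each of the 40 stromal matrix genes on each of 4 arrays (coloured points, offset vertically), with the mean as a black bar, grouped by role. The means lie between -0.43 and 0.42, and among the 40 genes Thbs1 alone has all 4 points above 0.

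The mean ratio was negative for 32 members and positive for 8, with a median of -0.06, where the median of all genes tested was -0.000243. With median centring in place of loess, which moved the median of all genes to 0.03, 13 members were positive. Of the members, 9 had the same sign on all 4 arrays, which is 22.5% beside 15.4% of all genes. In 8 of them that sign was negative (7.66% of all genes) and in 1 positive (7.69%). The 95% intervals of all 40 members lay within a 2-fold change either way, and 36 lay within 1.5-fold. The exceptions to the latter were Dpt, Eln, Mfap4 and Thbs1, so for these a change of 1.5-fold lies inside the interval.

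**Figure D2:**
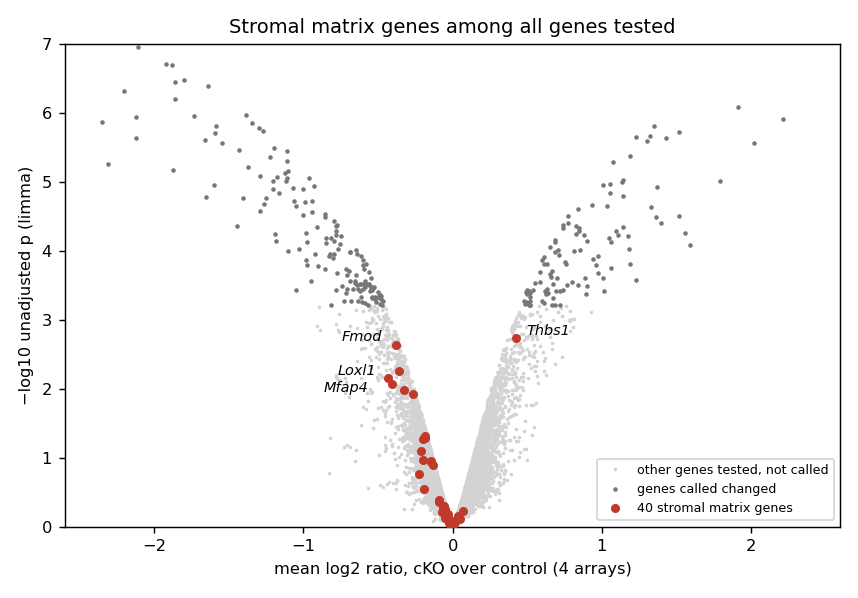
Mean log2 ratio of cKO over control (horizontal axis) against −log10 of the unadjusted limma p (vertical axis) for the 21501 genes tested, with the 40 stromal matrix genes in red and called genes in dark grey (2 genes lie beyond the axes). All red points lie below the called genes, and Thbs1 and Fmod are the highest of them.

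The fibrillar collagens form the main fibres of loose connective tissue. None of the 5 genes was called by limma, 0 had an unadjusted p under 0.05, and their median was -0.02. The type I chains Col1a1 and Col1a2 averaged 0.01 ± 0.19 and -0.02 ± 0.35, with 95% intervals of -0.22 to 0.24 and -0.30 to 0.27. Col3a1, which encodes type III collagen (probe at chromosome 1, 45405589 to 45405648, mm9), gave 0.04, -0.04, 0.29 and -0.52 in replicates 1 to 4, on average -0.06 ± 0.34 (SD, n = 4). The male arrays, replicates 3 and 4, lay on opposite sides of 0. Col5a1, a chain of the type V collagen that helps to start fibrils, gave -0.29, 0.10, -0.04 and -0.00, on average -0.06 ± 0.16. Its partner chain Col5a2 gave -0.20, 0.44, 0.16 and -0.13, on average 0.07 ± 0.29. All 5 genes had cKO and control levels that overlapped.

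Collagen VI forms beaded filaments around cells, and collagens XII and XIV bind to the surface of fibrils. None of these 5 genes was called by limma, and 0 had an unadjusted p under 0.05. Col12a1 gave -0.37, 0.01, -0.22 and -0.16, on average -0.19 ± 0.16 (limma, adjusted p = 0.634). Its ratios were below 0 in replicates 1, 3 and 4, and a much dimmer probe of the gene averaged 0.11 ± 0.16, with the opposite sign. Col6a2 gave -0.35, -0.03, -0.12 and -0.07, on average -0.14 ± 0.14 (limma, adjusted p = 0.851), below 0 on each array. The other collagen VI chains averaged -0.05 ± 0.13 (Col6a1) and 0.04 ± 0.22 (Col6a3). Col14a1 gave -0.17, 0.14, 0.05 and -0.38, on average -0.09 ± 0.23, with the female arrays on opposite sides of 0.

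Among the proteoglycans and dermatopontin, none of 7 genes was called by limma, 6 had a negative mean, and 1 had an unadjusted p under 0.05. That gene was Fmod, fibromodulin, a small leucine-rich proteoglycan that binds collagen fibrils (probe at chromosome 1, 135943998 to 135944057, mm9). Its normalised log2 intensities were 11.52, 11.49, 11.35 and 11.36 in the control RNAs of replicates 1 to 4 and 11.04, 11.09, 11.07 and 11.01 in the cKO RNAs. Every cKO level lay below every control level. The ratios were -0.48, -0.40, -0.29 and -0.36, averaging -0.38 ± 0.08 (SD, n = 4), 1.30-fold lower, with a 95% interval of -0.56 to -0.20 and a limma adjusted p of 0.111. The call depended on the fit: in limma the adjusted p was 0.0213 when the channels were taken as 8 unpaired RNAs, 0.0328 without replicate 2 and 0.0192 without replicate 4, but 0.936 without replicate 1 and 0.487 without replicate 3. Limma gave every gene the same variance in the fits without replicate 1 or 3, but not in those without replicate 2 or 4. The p of these fits thus differ in more than the array left out. Over all genes, limma called 513 lower and 431 higher without replicate 2, and 862 and 757 without replicate 4. With all arrays it called 153 and 113. With 1 array left out the log2 ratio of Fmod ran from -0.43 to -0.33. Over the processing alternatives that kept the pairing by array, the limma adjusted p ranged from 0.104 to 0.287.

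The other genes of the group varied more between arrays. Dcn, decorin, a collagen-binding proteoglycan, had log2 intensities of 17.53, 17.49, 17.39 and 17.74 in the control RNAs and 17.45, 17.44, 17.52 and 16.84 in the cKO RNAs. Its ratios were -0.07, -0.05, 0.12 and -0.90, averaging -0.22 ± 0.46 (limma, adjusted p = 0.964). The low value is that of replicate 4: the plain mean of the other arrays was 0.00156, and the fit without replicate 4 gave -0.01. Without replicate 2 limma called Dcn at -0.44 (adjusted p = 0.0139), a fit in which replicate 4 is the only array of its orientation, where the plain mean was -0.28. Bgn, biglycan, a close relative of decorin, gave -0.44, 0.26, -0.34 and -0.26, on average -0.20 ± 0.31 (limma, adjusted p = 0.836). With 1 array left out its log2 ratio ran from -0.32 to -0.07. Limma called Bgn only without replicate 2, at -0.32 (adjusted p = 0.0488). Dpt, dermatopontin, which binds decorin, had the widest range of the 40 genes, 1.08 log2 units, from -0.78 in replicate 4 to 0.30 in replicate 3. Lum (lumican), Ogn (osteoglycin) and Vcan (versican, a large proteoglycan that binds hyaluronan) averaged -0.02 ± 0.32, 0.03 ± 0.21 and -0.07 ± 0.34, each with arrays on both sides of 0.

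In the elastic fibre group, none of 13 genes was called by limma, 12 had a negative mean, and 5 had an unadjusted p under 0.05, all lower. The group's median on the single arrays was -0.29, -0.05, -0.12 and -0.09 in replicates 1 to 4. Eln encodes elastin, the elastic core (probe at chromosome 5, 135179129 to 135179188, mm9). Its log2 intensities were 12.51, 11.96, 11.86 and 11.75 in the control RNAs and 11.64, 11.62, 11.48 and 11.69 in the cKO RNAs. The levels did not overlap, but the pair of replicate 4 was nearly equal and that of replicate 1 far apart. The ratios were -0.86, -0.34, -0.38 and -0.06, averaging -0.41 ± 0.34 (SD, n = 4), 1.33-fold lower, with a limma adjusted p of 0.242. With 1 array left out the log2 ratio of Eln ran from -0.53 to -0.29. Limma called Eln only without replicate 4, at -0.48 (adjusted p = 0.0217).

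Loxl1, an enzyme that cross-links elastin (probe at chromosome 9, 58138570 to 58138629, mm9), had log2 intensities of 14.37, 14.45, 14.24 and 14.15 in the control RNAs and 13.85, 14.03, 13.82 and 14.06 in the cKO RNAs, again without overlap. Its ratios were -0.52, -0.42, -0.42 and -0.09, averaging -0.36 ± 0.19 (limma, adjusted p = 0.191). With 1 array left out its log2 ratio ran from -0.44 to -0.28. Limma called Loxl1 only without replicate 4, at -0.44 (adjusted p = 0.00887). A further Loxl1 probe averaged -0.18 ± 0.20, closer to 0. Mfap4, a microfibril-associated protein (probe at chromosome 11, 61302147 to 61302206, mm9), had log2 intensities of 16.37, 15.89, 16.13 and 16.08 in the control RNAs and 15.92, 15.87, 15.32 and 15.63 in the cKO RNAs. These levels overlapped, and the pair of replicate 2 was equal to within 0.02. The ratios were -0.45, -0.01, -0.82 and -0.45, averaging -0.43 ± 0.33 (limma, adjusted p = 0.218). With 1 array left out the log2 ratio of Mfap4 ran from -0.54 to -0.32. Limma called Mfap4 only without replicate 2, at -0.54 (adjusted p = 0.00884).

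Fibulins bind elastin and microfibril proteins. Fbln5, fibulin-5, gave -0.63, 0.01, -0.40 and -0.30, on average -0.33 ± 0.27 (limma, adjusted p = 0.277). With 1 array left out its log2 ratio ran from -0.41 to -0.25. Limma called Fbln5 only without replicate 2, at -0.41 (adjusted p = 0.0230). The brightest of 3 probes of Fbln1, fibulin-1, gave -0.38, -0.24, -0.35 and -0.07, on average -0.26 ± 0.14 (limma, adjusted p = 0.297). With 1 array left out its log2 ratio ran from -0.31 to -0.22. Limma called Fbln1 only without replicate 4, at -0.31 (adjusted p = 0.0416). The other Fbln1 probes averaged -0.32 ± 0.18 and -0.37 ± 0.23, so all 3 had the same sign. Fbln2 averaged -0.14 ± 0.09, and Lox, the founding lysyl oxidase, -0.21 ± 0.21. The fibrillins Fbn1 and Fbn2, which form the microfibril itself, averaged -0.06 ± 0.26 and -0.01 ± 0.13. Of the microfibril-associated genes Mfap2 averaged -0.13 ± 0.12 and Mfap5 -0.02 ± 0.12, and Emilin1 and Efemp2 (fibulin-4), which take part in elastic fibre assembly, -0.06 ± 0.18 and 0.04 ± 0.22.

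**Figure D3:**
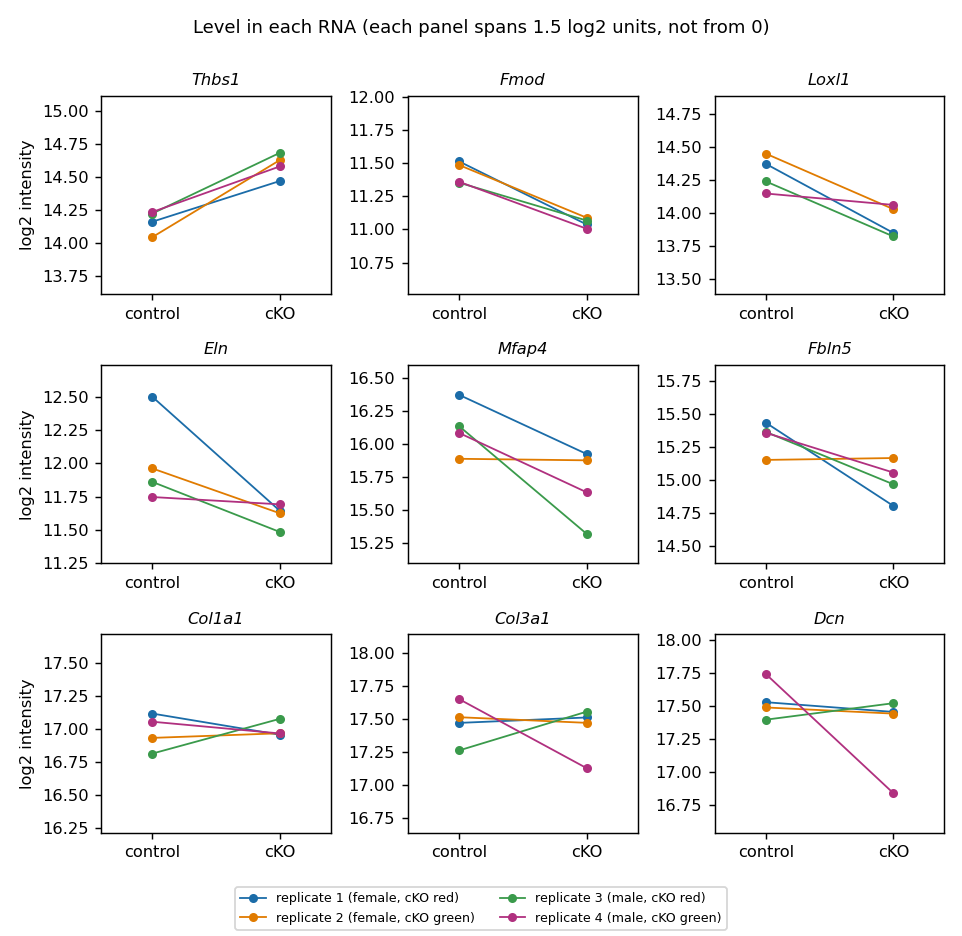
Normalised log2 intensity (vertical axis; each panel spans 1.5 units and does not start at 0) of 9 stromal matrix genes in the control and cKO RNA of each array, with a line joining the RNAs of 1 array. Thbs1 is higher in cKO on all 4 arrays and Fmod, Loxl1 and Eln are lower on all 4, whereas the lines of Col1a1, Col3a1 and Dcn run both ways.

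Adhesive and matricellular proteins join cells to the matrix or tune their response to it. None of these 8 genes was called by limma, and an unadjusted p under 0.05 was reached by Tnxb (lower) and Thbs1 (higher). Thbs1 encodes thrombospondin-1, a matricellular protein known to activate latent TGF-beta (probe at chromosome 2, 117952585 to 117952644, mm9). Its log2 intensities were 14.16, 14.05, 14.22 and 14.24 in the control RNAs and 14.47, 14.63, 14.68 and 14.58 in the cKO RNAs. Every cKO level lay above every control level. The ratios were 0.31, 0.58, 0.46 and 0.35, averaging 0.42 ± 0.12 (SD, n = 4), with a 95% interval of 0.23 to 0.62 and a limma adjusted p of 0.0986, the smallest of the 40. As for Fmod, the call depended on the fit: in limma the adjusted p was 0.0228 with 8 unpaired RNAs, 0.0314 without replicate 2 and 0.00641 without replicate 4, but 0.249 without replicate 1 and 0.758 without replicate 3. Here too the fits without replicate 1 or 3 gave every gene the same variance, and the others did not. With 1 array left out the log2 ratio of Thbs1 ran from 0.36 to 0.48. Over the processing alternatives that kept the pairing by array, the limma adjusted p ranged from 0.0593 to 0.366.

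Thbs2, the related thrombospondin-2, gave -0.22, -0.08, -0.12 and -0.38, on average -0.20 ± 0.14 (limma, adjusted p = 0.642), below 0 on each array. Tnxb, tenascin-X, a connective tissue tenascin, gave -0.26, 0.02, -0.34 and -0.17, on average -0.19 ± 0.15 (limma, adjusted p = 0.614). Postn (periostin) and Tnc (tenascin-C), both known from growing and healing stroma, averaged 0.05 ± 0.42 and 0.03 ± 0.27. Their arrays lay on both sides of 0, as did those of Fn1 (fibronectin, -0.06 ± 0.20), Sparc (osteonectin, -0.09 ± 0.27) and Ecm1 (-0.02 ± 0.34). Over all members, 5 had cKO and control levels that did not overlap, against 6.38% of all genes. In 4 (Fmod, Fbln1, Eln and Loxl1) the cKO levels were below (3.33% of all genes) and in 1 (Thbs1) above (3.05%).

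Neither fibroblast surface gene was called by limma, and 0 had an unadjusted p under 0.05. Pdgfra, the PDGF receptor that marks many fibroblasts, gave -0.35, 0.42, 0.15 and -0.43, on average -0.05 ± 0.41. Dlk1, a Notch-related surface protein of fetal mesenchyme, gave -0.12, 0.05, -0.07 and 0.01, on average -0.03 ± 0.08, the smallest SD of the 40. A dimmer Dlk1 probe varied more, with -0.64, 0.09, -0.28 and 0.12, on average -0.17 ± 0.36. Further probes were present for 14 members. Of these 17 probes, 15 had the sign of the gene's brightest probe and none was called by limma, and the widest gap to the brightest probe was 0.30 (Col12a1).

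The members' ratios as a whole were low on some arrays and near 0 on others. Their median was -0.23, 0.04, -0.03 and -0.19 in replicates 1 to 4, where the medians of all genes lay between -0.00822 and 0.00550. Only 2 of 40 ratios were above 0 in replicate 1 and 6 in replicate 4, against 26 in replicate 2 and 19 in replicate 3. Replicate 1 held the lowest ratio of 21 members and replicate 2 the highest of 25. The matching shares of all genes were not computed. Ratios of all genes were spread more widely in replicate 2 (quartiles -0.16 and 0.17) than in replicate 1 (-0.09 and 0.08). The arrays with low medians were replicate 1 (female, cKO in red) and replicate 4 (male, cKO in green). With 1 array per combination of sex and dye orientation, a joint effect of both cannot be told from a difference between single arrays. The median SD over arrays was 0.22 for the members and 0.16 for all genes. In the fits without replicate 1 or without replicate 4 the median of the members was -0.02, and without replicate 2 it was -0.18.

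**Figure D4:**
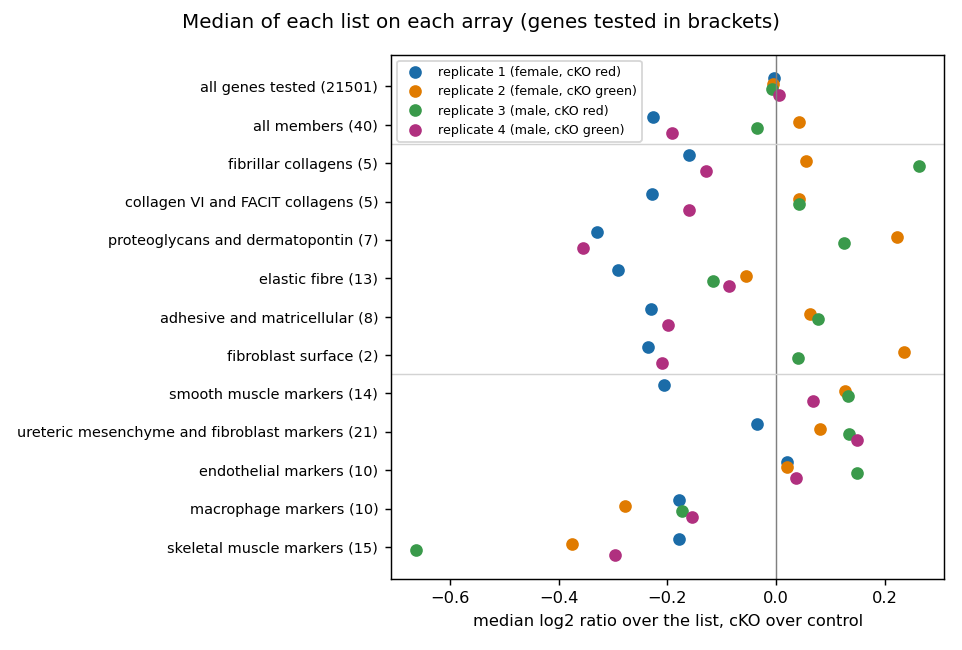
Median log2 ratio of cKO over control (horizontal axis) on each array (coloured points) for all genes tested, all stromal matrix genes, their groups and 5 marker lists, with the number of genes in brackets. The members' medians run from -0.23 in replicate 1 to 0.04 in replicate 2, and of the member groups the elastic fibre group has all 4 medians below 0.

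Markers of cells of the ureter wall and of neighbouring tissues were set beside the members. The medians of 14 smooth muscle markers were -0.21, 0.13, 0.13 and 0.07 in replicates 1 to 4, with 0 called by limma and 0 at an unadjusted p under 0.05. Those of 21 markers of ureteric mesenchyme and fibroblasts were -0.04, 0.08, 0.13 and 0.15, with 0 called and 4 higher at an unadjusted p under 0.05, the smallest p being those of Ptch1 at 0.42 ± 0.10 and Foxf1 at 0.45 ± 0.31. Of 15 skeletal muscle markers limma called 2 lower, Myl1 (-0.78 ± 0.12, adjusted p = 0.0104) and Ckm (-0.71 ± 0.26, adjusted p = 0.0245), and the medians were -0.18, -0.38, -0.66 and -0.30. All 15 were above background, with a summed intensity of 119696 to 141744 in control and 109711 to 132630 in cKO RNAs. Des is in both the skeletal and the smooth muscle list, so this sum is not of skeletal muscle genes alone. Of 10 macrophage markers, all above background, limma called 0 (4 lower unadjusted), with medians of -0.18, -0.28, -0.17 and -0.15 and a summed intensity of 46582 to 55638 in control and 40434 to 47791 in cKO RNAs. Of 10 endothelial markers, all above background, 0 were called and 0 had an unadjusted p under 0.05 in limma. The part of these cells in the members' ratios was not tested.

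The same medians were taken for markers of the kidney, of cartilage and bone, and of the epithelium. The medians of 9 nephron and kidney stroma markers were 0.21, -0.30, -0.07 and 0.56 in replicates 1 to 4, beside -0.23, 0.04, -0.03 and -0.19 for the members. Of the 12 markers listed, 9 were above background, Nphs1, Slc12a1 and Umod were not among the genes tested, and the summed intensity of the 9 was 50204 to 61926 in control and 59827 to 84591 in cKO RNAs. Limma called 1 of them, Cubn, a receptor of the proximal tubule, higher at 2.22 ± 0.28 (adjusted p = 0.00175). The medians of 11 cartilage and bone markers were -0.05, -0.19, -0.04 and 0.11 and those of 12 urothelial and epithelial markers -0.15, -0.00, -0.27 and -0.19. The summed intensity of the cartilage and bone markers was 58565 to 60964 in control and 64280 to 72120 in cKO RNAs. Their single ratios were mixed, with 6 positive and 5 negative means and 0 called by limma in either direction. The part of kidney tissue in the members' ratios was not tested.

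No member's genotype effect was shown to differ by sex or to carry a dye effect. The difference between female and male arrays was called in 0 of 40 members by limma and in 0.0698% of all genes. At an unadjusted p under 0.05 it was seen in 0 members and 0.939% of genes. The dye term was called by limma in 0 members and 0% of genes, and had an unadjusted p under 0.05 in 0 members and 2% of genes. With 2 arrays per sex and per dye orientation, these tests leave wide room for a difference.

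The wider machinery of the stromal matrix was not called either. Of 27 genes of collagen synthesis and cross-linking, limma called 0 (2 higher unadjusted), with Tgm2, a transglutaminase, at 0.30 ± 0.11 (adjusted p = 0.213) and P3h2, a collagen prolyl hydroxylase, at 0.29 ± 0.07 (adjusted p = 0.241). Of 16 further collagens it called 0 (1 higher unadjusted), with Col9a1 at 0.26 ± 0.13 and Col18a1 at -0.17 ± 0.18. Of 42 further glycoproteins and proteoglycans it called 0 (4 lower and 5 higher unadjusted). Of these, Mgp, an inhibitor of calcification, was at -0.47 ± 0.24 (limma, adjusted p = 0.0771) and Omd, osteomodulin, at 0.26 ± 0.16. Of 32 matrix proteases and inhibitors limma called 0 (6 lower and 3 higher unadjusted), with Mmp11, stromelysin-3, at -0.38 ± 0.07 (adjusted p = 0.0929) and Htra1, a secreted serine protease, at -0.40 ± 0.27 (adjusted p = 0.103). Of 23 genes of TGF-beta control limma called 0 (4 lower and 1 higher unadjusted), with Gdf10 at -0.50 ± 0.17 (adjusted p = 0.0846) and Inhbb, an activin subunit, at 0.44 ± 0.21 (adjusted p = 0.130). The medians of these 5 lists lay between -0.06 and 0.02.

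The RefSeq promoter table (GRCm38.p6) matched 26 of the 40 members, and the 150 bases before a start are shown for the 3 of them with the smallest p, the first listed start being taken for each. Thbs1, Loxl1, Mfap4 and Eln had smaller p than Fbln5 and Fbln1 but were not matched. Capitals mark matches on either strand to the Sp1 motif GGGCGG, the CCAAT box, the TATA box TATAAA, the AP-1 motif TGANTCA or the TEAD motif CATTCC, and the marked matches do not overlap. The Fmod run lies at chr1:134037104-134037253 on the plus strand, the Fbln5 run at chr12:101819120-101819269 on the minus strand, and the Fbln1 run at chr15:85205799-85205948 on the plus strand.
Fmod: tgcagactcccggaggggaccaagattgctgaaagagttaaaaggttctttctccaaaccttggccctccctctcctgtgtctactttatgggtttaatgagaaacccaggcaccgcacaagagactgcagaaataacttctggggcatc
Fbln5: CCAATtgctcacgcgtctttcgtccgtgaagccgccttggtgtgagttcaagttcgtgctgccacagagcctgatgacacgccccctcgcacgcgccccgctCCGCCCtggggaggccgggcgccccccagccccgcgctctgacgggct
Fbln1: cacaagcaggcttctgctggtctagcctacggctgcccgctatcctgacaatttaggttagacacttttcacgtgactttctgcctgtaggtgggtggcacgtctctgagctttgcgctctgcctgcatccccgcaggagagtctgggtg
The Fmod and Fbln1 runs held none of these motifs. Of the second listed starts, that of Fbln1 had 1 match, to GGGCGG, and that of Fbln5 had none in its 150 bases. In the 250 bases before any listed start, GGGCGG was found in 13 of the 26 members and 35.4% of 27025 genes, and TATAAA in 6 members and 14.3% of genes. CCAAT was found in 5 members and 37.5% of genes, CATTCC in 4 and 14.4%, and TGANTCA in 3 and 7.82%. These matches describe letters in a window, and no motif was compared with the ratios.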

How the data were processed

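RNA of 4 cKO and 4 control ureter samples was hybridised in pairs to 4 Agilent arrays, from 200 ng of RNA per labelling, per the labels' protocols. For each spot, the scanner files deposited by the authors give an intensity in both channels, written by Feature Extraction 10.7.3.1 according to their headers, with probe positions on mm9. Spot flags of other kinds (nonuniform, saturated, above background) were used as deposited. A deposited value table holds log2 ratios; regressed on red over green of the processed signals it has slopes of 1.00, -0.994, 0.999 and -1.00 in replicates 1 to 4, so it gives cKO over control. Its columns have medians of 0, and exact zeros make up 32.2% to 32.6% of them, for a reason the sources do not state.

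Here, background was corrected with normexp (offset 50) and ratios normalised by loess, with control spots at weight 0. Nonuniform spots were left out and the 4 spots of a probe averaged. A probe was kept if at least 0.5 of its spots were above background on all 4 arrays in either genotype (28611 probes). Of the 39429 probes, 30385 matched a RefSeq symbol (GRCm38.p6), 1442 an accession there, and 7602 stayed under their file name. Levels are log2 intensities after loess and Aquantile, not comparable between probes. The model, in limma 3.58.1 under R 4.3.3, was fitted to ratios (genotype and dye, two-sided, Benjamini-Hochberg over 21501 genes). The array is the pair, since it holds 1 cKO and 1 control RNA.

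The fit was tested on simulated data under 2 variance models. With gene variances drawn from limma's fitted prior, the share of false calls stayed under the nominal level. With limma's posterior variances, the model tried first, it exceeded that level, so the calibration of the adjusted p depends on how gene variances are distributed. Of simulated 1.25-fold changes, 1.03% were called under the fitted prior and 19.7% under the posterior variances. For 1.5-fold changes these shares were 36.3% and 94.5%.

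Members with full values are the 3 of each group with the smallest p and the largest positive and negative means. Fbln1 and Fbln5, the promoter motifs and the members given by their mean alone were chosen after values were seen. Called genes or the 2 with the smallest p are named for the further matrix lists and for the mesenchyme, skeletal muscle and kidney markers. For the other marker lists no gene is named apart from Trp63. The members and lists were chosen with earlier results of these data known. Limma also counted epithelial (3 lower and 1 higher of 12), cartilage and bone (0 of 11; 1 lower and 3 higher unadjusted) and kidney markers (1 higher of 9; 3 higher unadjusted).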

Additional observations from a re-analysis of the deposited data

Results flagged for a closer look

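In 4 of the 40 members, 1 array stood apart from the others by more than Dixon's 95% limit for 4 values. Sparc was at -0.49 in replicate 4, with the other arrays between -0.01 and 0.08. This held for its brightest probe only: the dimmer Sparc probes gave 0.01 and -0.18 in replicate 4. The former was lowest in replicate 1, at -0.51, and the latter gave -0.13 there. Efemp2 was at 0.37 in replicate 4, with the others between -0.11 and -0.05. Ecm1 was at 0.49 in replicate 4, with the others between -0.25 and -0.13. Mfap5 was at 0.16 in replicate 2, with the others between -0.11 and -0.07. Chance alone picks out about 1 in 20 groups of 4 normally distributed values. The share of all genes flagged in this way was not computed, so whether 4 of 40 is unusual on these arrays is not known.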

How the results depend on the processing

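No member was called by limma with Agilent's processed signals, median centring, no filter on dim probes, all kept probes averaged, a sex term or the deposited value table, and the smallest adjusted p of a member over these fits was 0.0555 (sex term). The deposited table as it stands, exact zeros kept, gave 0 genes lower and 1 higher over all tested (956 and 824 at an unadjusted p under 0.05 in limma), 0 lower and 0 higher in the other lists, and Trp63 at -1.41, not called (limma, adjusted p = 0.204). After these counts were seen, a fit without the genes that hold an exact 0 was added, which gave 198 lower and 135 higher of 19596 genes and Trp63 at an adjusted p of 0.00108; 0 members were called in either. In the unpaired fit, with no replicate block, 1 member was called lower (Fmod) and 1 higher (Thbs1), and 5 genes of the other lists higher, against 2 when paired by array. Without the filter 55 genes were lower and 31 higher, with 2 and 1 in the other lists. With a sex term the counts were 311 and 233, with 14 and 5, and median centring left 1 gene of the other lists higher. The cause of these shifts was not tested.

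Leaving out each array gave 0 to 5 members lower and 0 to 1 higher, 155 to 862 genes lower and 128 to 757 higher (153 and 113 with all arrays), and 4 to 29 and 2 to 16 in the other lists (5 and 2). The median of the members ranged from -0.18 to -0.0168 and the number with a positive mean from 2 to 19. Members were called without replicate 2 or replicate 4 alone, fits whose residual spread comes from replicates 1 and 3. In those fits limma's prior had 8.50 degrees of freedom. Without replicate 1 or replicate 3 it was infinite, so every gene had the same variance. The counts of these fits therefore differ in more than the array left out. Col5a1 changed sign between -0.12 and 0.00380, Col5a2 between -0.0736 and 0.21, Col3a1 between -0.18 and 0.0623, Col14a1 between -0.22 and 0.0407 and Pdgfra between -0.27 and 0.16.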
